A study of Homo sapiens with 4 samples.

Results

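The genes described here take part in cell death, most of them in the route that starts at death receptors on the cell surface and APAF1 in the mitochondrial route. They are the ligand gene TNFSF10 (TRAIL), the receptor genes TNFRSF10A, TNFRSF10B, FAS and TNFRSF1A, the initiator caspase gene CASP8 and its regulator CFLAR, the kinase genes RIPK1 and RIPK3, and APAF1 of the apoptosome. They were chosen by gene symbol in the deposited NB4 table, which held all 10 of them among 60662 genes. The study asked what JMJD3, a histone demethylase encoded by KDM6B, does in acute myeloid leukemia cells. NB4 is a human M3/APL (acute promyelocytic leukemia) cell line that carries the PML-RARα fusion. NB4 cells were transduced with lentivirus. It was made from the empty pLVX-IRES-GFP vector (Vector group, 2 libraries) or from the same vector carrying wild-type JMJD3 (JMJD3 group, 2 libraries). Both groups thus carry a GFP vector, and repeated FACS selected the cells positive for GFP. Messenger RNA was sequenced, and each gene has an estimated count and an FPKM value (fragments scaled by transcript length and by library size) in every library.

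Total counts were 39078443 for Vector library 1, 40768225 for Vector library 2, 35176388 for JMJD3 library 1 and 34704909 for JMJD3 library 2. By the labels, lane 20 held Vector library 1 and lane 17 held the rest, which leaves 1 Vector library within lane 17. Whether the libraries of a group come from separate transductions is not stated, and p-values measure only the spread between these samples, which may be technical. KDM6B, the overexpressed gene, had 584 and 524 counts in the Vector libraries against 1402 and 1635 in the JMJD3 libraries, a log2 fold change of 1.48 (SE 0.13). Both JMJD3 libraries thus lay above both Vector libraries, as the labels have it, although a count per gene mixes transcripts of the vector and of the endogenous gene.

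Death ligands of the TNF family bind receptors that carry a death domain. TRAIL and FAS ligand receptors recruit FADD and caspase-8, whereas TNF receptor 1 first assembles a complex around RIPK1 that signals to NF-κB and survival. Caspase-8 starts apoptosis and cleaves RIPK1, c-FLIP (the product of CFLAR) restrains caspase-8, and where caspase-8 is inactive, RIPK1 and RIPK3 can pass the signal to MLKL and cause necroptosis. Retinoids are known to induce TRAIL in APL cells.

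In JMJD3 cells the ligand gene TNFSF10, the receptor gene FAS and APAF1 were higher, by log2 fold changes of 1.45 (SE 0.12), 0.70 (SE 0.13) and 1.37 (SE 0.21), and these calls held under all 12 alternative analyses run for each gene. TNFRSF10B was also higher and CASP8 lower, by log2 fold changes of 0.28 (SE 0.09) and -0.31 (SE 0.10), and both calls were lost under several alternatives. TNFRSF10A, TNFRSF1A, CFLAR and RIPK1 did not pass the test, and RIPK3 was too low to be tested. Thus 4 of the 10 members rose, 1 fell, 4 did not pass and 1 was not tested, at an adjusted p under 0.05 from edgeR's quasi-likelihood test. Of all 15246 genes tested, 21.6% were called higher and 19.1% lower. The members' shares of the 9 tested, 44.4% and 11.1%, rest on few genes chosen by name, and nothing particular to them is read from these shares. The groups did not overlap in CPM (counts scaled to library size) for 9 of 9 tested members, against 74.4% of all tested genes.

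**Figure D1:**
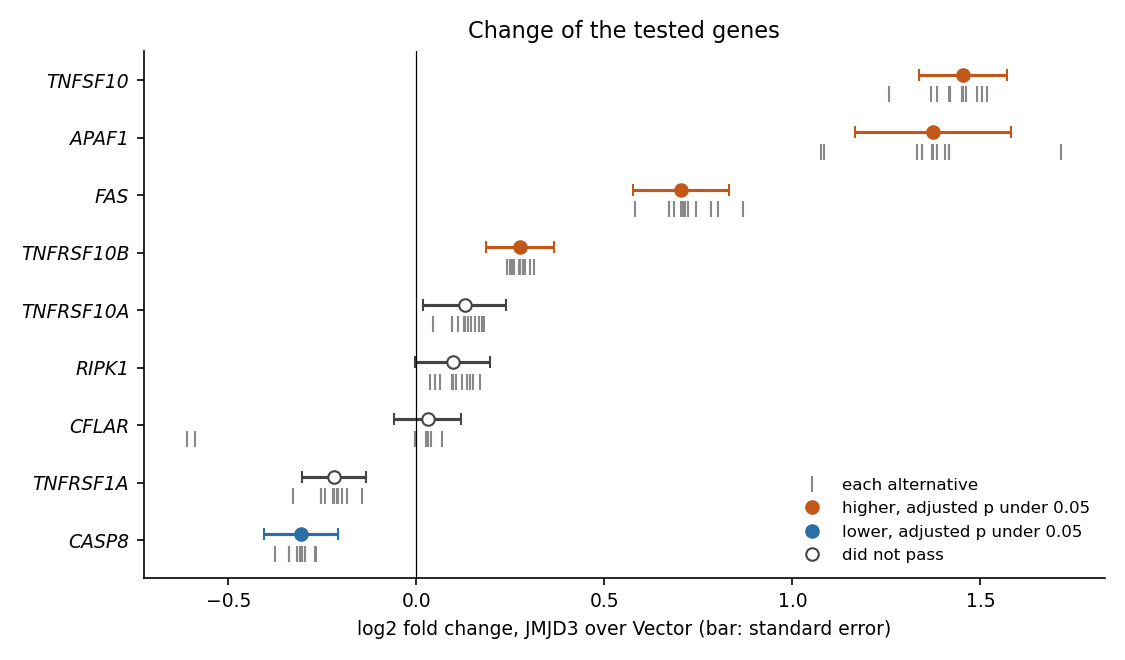
Log2 fold change (JMJD3 over Vector) of each tested member, with its standard error and a tick for each alternative analysis. TNFSF10, APAF1 and FAS lie to the right of 0 under all alternatives, while the ticks of CFLAR reach from -0.61 to 0.07.

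Because TNFSF10, FAS and APAF1 were called higher together, the promoters of these 3 genes are shown. RefSeq promoter windows (build GRCh38.p14, 250 bases before to 50 after a start) were found for 7 of the 10 members, 16 windows in all (none for TNFRSF10A, TNFRSF10B and RIPK3). The windows printed lie at chr3:172523381-172523680 on the minus strand for TNFSF10, at chr10:88990548-88990847 on the plus strand for FAS (the first of its 3 windows) and at chr12:98645040-98645339 on the plus strand for APAF1, each written 5′ to 3′ on the gene's strand. Capitals mark matches, on either strand, to TTGCNNAA (the C/EBP motif), GAAANNGAA (core of the interferon response element) or GGGCGG (the GC box), and no match overlaps another in these 3 windows.
TNFSF10: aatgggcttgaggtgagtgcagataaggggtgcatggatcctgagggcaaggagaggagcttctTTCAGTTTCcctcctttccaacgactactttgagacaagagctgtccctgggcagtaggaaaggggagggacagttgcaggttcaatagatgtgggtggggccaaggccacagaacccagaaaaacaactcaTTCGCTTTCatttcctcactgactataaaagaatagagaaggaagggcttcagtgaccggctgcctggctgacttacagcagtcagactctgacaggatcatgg
FAS: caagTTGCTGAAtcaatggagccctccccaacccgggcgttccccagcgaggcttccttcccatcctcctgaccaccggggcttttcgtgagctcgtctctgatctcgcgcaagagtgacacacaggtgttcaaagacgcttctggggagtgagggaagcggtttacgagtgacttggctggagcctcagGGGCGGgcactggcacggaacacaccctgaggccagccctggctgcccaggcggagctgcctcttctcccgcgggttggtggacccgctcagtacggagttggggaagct
APAF1: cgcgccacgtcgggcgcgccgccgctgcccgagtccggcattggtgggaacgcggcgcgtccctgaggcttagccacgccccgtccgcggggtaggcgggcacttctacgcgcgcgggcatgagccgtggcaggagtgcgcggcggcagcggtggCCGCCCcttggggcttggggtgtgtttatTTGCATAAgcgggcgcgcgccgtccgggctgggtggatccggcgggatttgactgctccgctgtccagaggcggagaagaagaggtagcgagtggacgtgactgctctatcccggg

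The TNFSF10 window held 2 matches to GAAANNGAA, which start 186 and 54 bases before the transcription start, and no match to the other two motifs. In the FAS window TTGCNNAA started 246 bases and GGGCGG 60 bases before the transcription start. The second FAS window overlaps the first and holds the same GGGCGG site with 1 more TTGCNNAA match, and the third holds 2 other GGGCGG matches. The APAF1 window held TTGCNNAA at 66 and GGGCGG at 95 bases before the start. FAS and APAF1 thus share a C/EBP and a GC box match, and TNFSF10 shares neither with them. CASP8, which was called lower, and RIPK1 and CFLAR, which did not pass, also have windows with GGGCGG and with GAAANNGAA, but none with TTGCNNAA, and the TNFRSF1A window held no match. Among all 35116 windows, 10.5% held TTGCNNAA, 8.11% GAAANNGAA and 45.0% GGGCGG. The observed over expected CpG content was 0.159 in TNFSF10, 0.605 in FAS and 1.13 in APAF1, against a median of 0.579 over all windows, so the 3 windows differ in CpG content as well. A match describes the letters of the window and shows neither binding nor a cause.

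By FPKM, which corrects for length and so allows genes to be compared, TNFRSF1A was the most abundant member, at a mean of 102 over the 4 libraries. CFLAR and CASP8 followed at 28.7 each and overlapped between libraries, and TNFRSF10B stood below them at 18.3. FAS (8.98), TNFSF10 (8.09), TNFRSF10A (7.96) and RIPK1 (7.66) had close means over the 4 libraries, but within the groups their order was clearer. In Vector cells TNFSF10 (4.16 and 4.58) lay below the other three, which overlapped as neighbours, and in JMJD3 cells TNFSF10 (12.1 and 11.6) and FAS (11.7 and 11.5) overlapped each other and lay above TNFRSF10A (9.03 and 7.87) and RIPK1 (7.87 and 8.36), which also overlapped. APAF1 was lower at 3.79, and RIPK3 was last at 0.0275. Between the groups the order shifted most for TNFSF10, the eighth member in Vector cells (mean FPKM 4.37) and the fifth in JMJD3 cells (11.8). CASP8 lay above CFLAR in 3 libraries and below it in Vector library 2, so these neighbours have no settled order in Vector cells. In JMJD3 cells CASP8 (25.6 and 25.4) lay above CFLAR (22.9 and 22.4) without overlap.

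**Figure D2:**
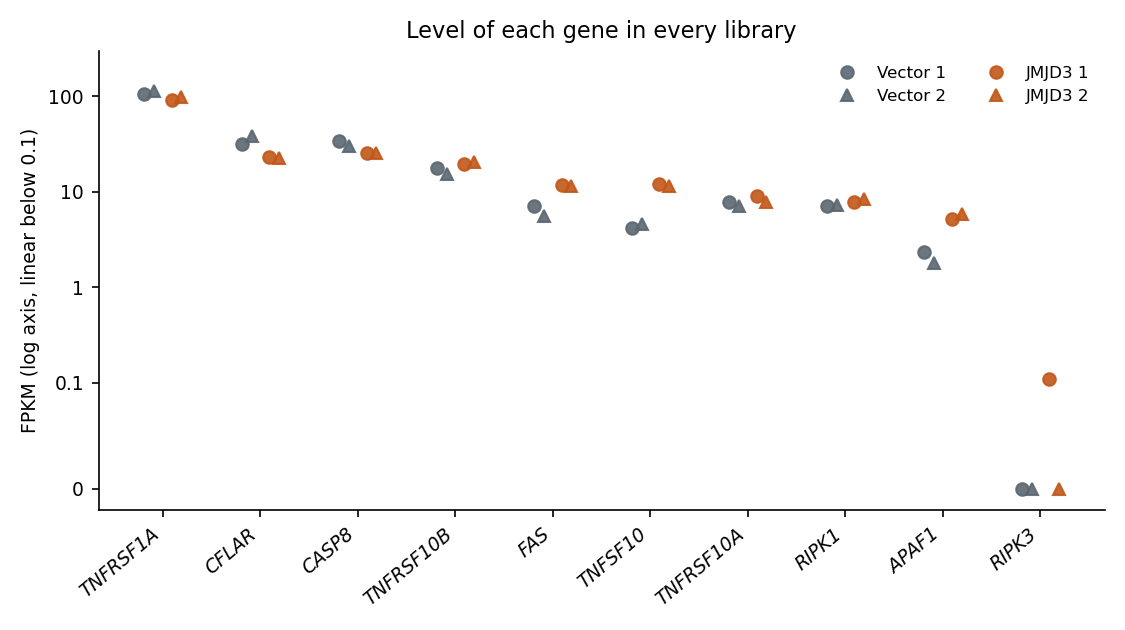
FPKM of the 10 members in each of the 4 libraries, on an axis that is linear near 0 and logarithmic above. TNFRSF1A lies highest in all libraries (92.2 to 114), and RIPK3 is at 0 in 3 of them.

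TNFSF10 (ENSG00000121858; chromosome 3, 172505508 to 172523430 in RefSeq GRCh38.p14, the source of the positions given here) encodes TRAIL, the ligand of the receptors made from TNFRSF10A and TNFRSF10B. It had 246 and 271 counts in Vector libraries 1 and 2 and 729 and 665 in JMJD3 libraries 1 and 2. Both JMJD3 libraries thus stood far above both Vector libraries, and the groups did not overlap. In CPM this was 6.87 ± 0.328 (SD, n = 2) in Vector and 18.8 ± 1.22 (SD, n = 2) in JMJD3 cells, and the log2 fold change was 1.45 (SE 0.12; edgeR adjusted p = 0.000997). FPKM gave the same order, 4.16 and 4.58 against 12.1 and 11.6. Over the alternatives the log2 fold change lay between 1.26 and 1.52, and within lane 17 it was 1.37. In a bulk sample, more cells that express a gene and more RNA per cell cannot be told apart, here or for any gene given below. The gene for the other classical ligand, FASLG, chosen after its values were seen, had 0 counts throughout. An observed 0 leaves room for 3 counts, or 0.0810 CPM in a JMJD3 library, and such limits cover counting error only.

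FAS (ENSG00000026103; chromosome 10, 88964050 to 89017059) encodes the receptor of FAS ligand. It had 366 and 315 counts in the Vector libraries and 540 and 554 in the JMJD3 libraries, with no overlap. CPM was 9.06 ± 1.15 (SD, n = 2) and 14.8 ± 0.268 (SD, n = 2), and the log2 fold change of 0.70 (SE 0.13) passed the test (edgeR adjusted p = 0.00717). It ranged from 0.58 to 0.87 over the alternatives and was 0.80 within lane 17. ACTA2, a smooth muscle actin gene on the opposite strand, overlaps 10.7% of the exon bases of FAS. ACTA2, looked at after the values were seen, had 103 and 116 counts in Vector and 262 and 246 in JMJD3 cells, and it rose by a log2 fold change of 1.24 (SE 0.14; edgeR adjusted p = 0.00209). The counting strand is not stated, and without strand reads from the shared bases of FAS and ACTA2 cannot be told apart.

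The TRAIL receptor genes moved less. TNFRSF10B (ENSG00000120889), which encodes DR5, had 1725 and 1721 counts in Vector and 2017 and 2091 in JMJD3 cells, or 45.8 ± 1.02 and 55.5 ± 1.41 CPM (SD, n = 2 each). The JMJD3 libraries were higher without overlap, and the log2 fold change of 0.28 (SE 0.09) passed narrowly (edgeR adjusted p = 0.0495). The call was made under 4 of 12 alternatives (adjusted p from 0.0254 to 0.466) and was lost with DESeq2, with limma on FPKM, with no filter on low counts, with the replicate block and without either JMJD3 library (edgeR adjusted p = 0.343 without JMJD3 replicate 1 and 0.466 without JMJD3 replicate 2). RHOBTB2, on the opposite strand and looked at after the values were seen, overlaps 7.52% of its exon bases and had 630 and 730 against 806 and 846 counts. TNFRSF10A (ENSG00000104689), which encodes DR4, had 678 and 618 counts in Vector and 706 and 690 in JMJD3 cells. Its log2 fold change of 0.13 (SE 0.11) did not pass (edgeR adjusted p = 0.379), nor did it under any of the 12 alternatives, whose adjusted p ran from 0.109 to 0.766. The value was 0.045 without Vector replicate 2 and 0.18 without Vector replicate 1. The difference in response between the ligand gene and its receptor genes was not tested.

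TNFRSF1A (ENSG00000067182; chromosome 12, 6328771 to 6342076) encodes TNF receptor 1. Its counts were 5718 and 6510 in Vector and 5246 and 5083 in JMJD3 libraries, and its FPKM 106 and 114 against 92.2 and 97.3. Both JMJD3 libraries were lower than both Vector libraries, with a log2 fold change of -0.22 (SE 0.09) that did not pass (edgeR adjusted p = 0.0790). Without Vector replicate 1, which is also the comparison within lane 17, it did pass, with a log2 fold change of -0.33 (edgeR adjusted p = 0.00747, in a range of 0.00747 to 0.495 over the alternatives). Without Vector replicate 2 it was -0.14 (edgeR adjusted p = 0.0975), so the value depends on which Vector library is used. Leaving out Vector replicate 1 was the 1 alternative of 12 under which it passed, and Vector library 1 and lane 20 cannot be told apart.

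CASP8 (ENSG00000064012; chromosome 2, 201233463 to 201287711) encodes caspase-8, the protease that the death receptors activate. Counts were 2119 and 1972 in Vector and 1643 and 1617 in JMJD3 libraries. This was 57.2 and 51.7 CPM in Vector against 44.4 and 43.7 CPM in JMJD3 libraries, with no overlap, and the log2 fold change was -0.31 (SE 0.10; edgeR adjusted p = 0.0453). This call was made under 5 of 12 alternatives (adjusted p from 0.0103 to 0.385). It was lost with upper quartile scaling, limma on FPKM, no filter on low counts and the replicate block, and without either JMJD3 library (edgeR adjusted p = 0.325 without JMJD3 replicate 1 and 0.385 without JMJD3 replicate 2). The log2 fold change itself lay between -0.38 and -0.27 in all of them.

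CFLAR (ENSG00000003402; chromosome 2, 201116164 to 201176687) encodes c-FLIP, a relative of caspase-8 that lacks its protease activity and competes with it at the receptor. CFLAR, CASP10 and CASP8 lie beside each other on chromosome 2 in that order. CFLAR had 1854 and 1893 counts in Vector and 1881 and 1886 in JMJD3 libraries, nearly the same number in all 4. Its log2 fold change on counts was 0.03 (SE 0.09; edgeR adjusted p = 0.805). Its FPKM was 31.3 and 38.2 in Vector but 22.9 and 22.4 in JMJD3 libraries, with no overlap. On log2(FPKM + 1) limma gave a log2 fold change of -0.59 (adjusted p = 0.0228), and on log2(FPKM + 0.1) -0.61 (adjusted p = 0.0212), against adjusted p up to 0.986 over all its alternatives. So CFLAR passed as lower on FPKM and was close to 0 on counts, and its direction on counts also changed sign with DESeq2 and without Vector replicate 1, at values close to 0. CASP10, chosen after its values were seen, had 265 and 274 against 292 and 349 counts and did not pass (edgeR adjusted p = 0.152).

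The gap between the scales lies in the length used for FPKM. A count divided by its FPKM, relative to the median gene of the library, gives the length that a gene's estimate implies in that library. For CFLAR this relative length was 0.846 and 0.695 in Vector and 1.16 and 1.21 in JMJD3 libraries. The log2 ratio between the groups, 0.62, lies at percentile 99.3 of 12165 genes with a mean count of at least 50, of which 65.5% lie within 0.1 of 0. CASP8 had relative lengths of 0.898 and 0.921 in Vector and 0.905 and 0.917 in JMJD3 libraries, which are close together. CFLAR has 17 coding transcripts in GENCODE release 44, from 435 to 14612 bases long, and CASP8 also has 17, from 798 to 2930 bases. Which CFLAR transcripts were counted cannot be read from a table per gene. FAS had relative lengths of 0.730 and 0.795 against 0.650 and 0.695, a log2 ratio of -0.18 at percentile 10.4, and the other members with a length lay within 0.1 of 0. The ratio of CASP8 to CFLAR by FPKM, computed after the values were seen, was 1.08 and 0.786 in Vector and 1.12 and 1.13 in JMJD3 libraries. The ratio of their counts was 1.14 and 1.04 in Vector and 0.873 and 0.857 in JMJD3 libraries. The direction of this ratio thus reverses with the scale, higher in both JMJD3 libraries by FPKM and lower in both by counts.

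**Figure D3:**
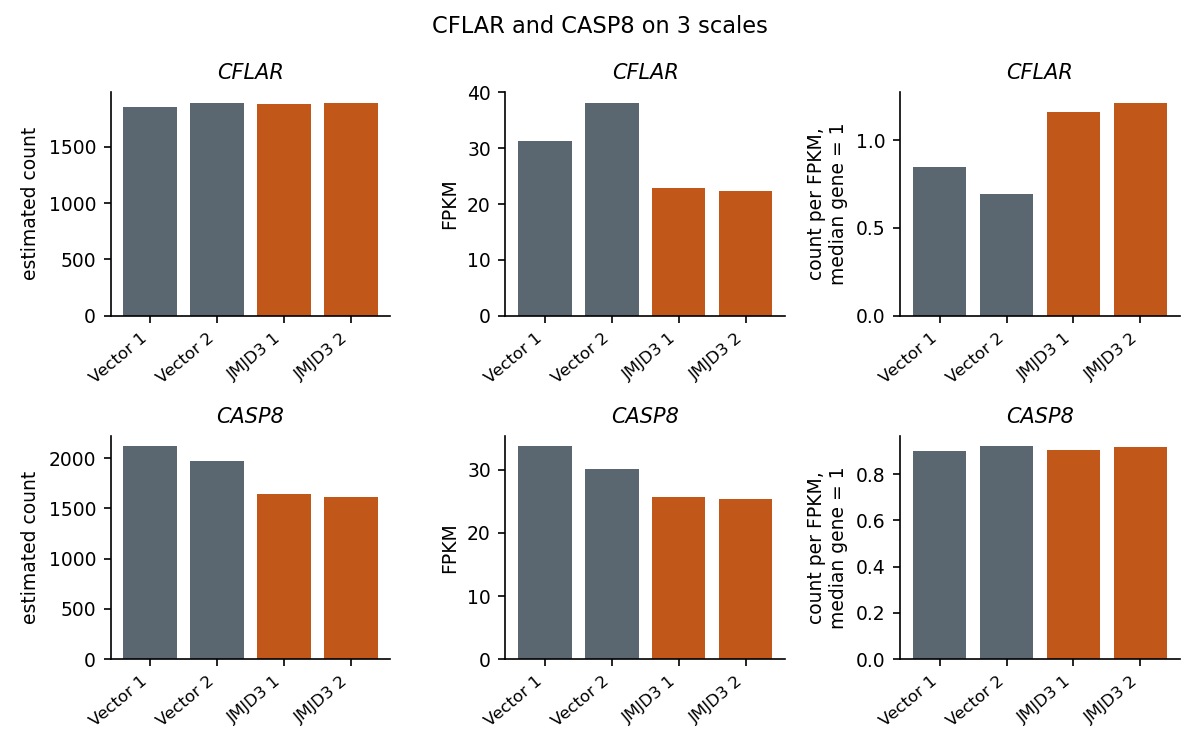
Estimated count, FPKM and count per FPKM (median gene of the library = 1) of CFLAR and CASP8 in each library, as bars from 0. CFLAR counts are level near 1854 to 1893, its FPKM is lower in both JMJD3 libraries and its relative length is higher, while CASP8 has nearly the same relative length in all 4.

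RIPK1 (ENSG00000137275; chromosome 6, 3063967 to 3115187) encodes the kinase at the branch between survival, apoptosis and necroptosis. It had 946 and 1004 counts in Vector and 994 and 1059 in JMJD3 libraries, and its FPKM ran from 7.14 to 8.36. The log2 fold change of 0.10 (SE 0.10) did not pass (edgeR adjusted p = 0.466), nor did it under any of the 12 alternatives, whose adjusted p ran from 0.270 to 0.909. The value was 0.037 without Vector replicate 1, 0.051 without JMJD3 replicate 2 and up to 0.17 with limma on FPKM. MLKL, the protein that executes necroptosis downstream of RIPK3, was chosen after its values were seen. It had 1154 and 1199 counts in Vector and 1073 and 1090 in JMJD3 libraries and did not pass (log2 fold change -0.10, edgeR adjusted p = 0.436). ZBP1, another activator of RIPK3 and chosen in the same way, had 0 counts in all 4 libraries.

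RIPK3 (ENSG00000129465; chromosome 14, 24336025 to 24339991) encodes the kinase that phosphorylates MLKL. It had 0 counts in both Vector libraries, 1 in JMJD3 library 1 and 0 in JMJD3 library 2, and an FPKM of 0.110 in that single library. All 4 libraries therefore lay at or under the 3 counts that an observed 0 allows, which correspond to 0.0809 and 0.0786 CPM in the Vector and 0.0810 CPM in each JMJD3 library. RIPK3 was not detectable beyond this limit in either group, and no fold change is given. The gene ENSG00000258973, which shares 11.1% of the exon bases of RIPK3 on the same strand, had 0 counts in all libraries. By RT-qPCR the paper reports more RIPK3 mRNA upon JMJD3 overexpression in several AML cells, with NB4 cells among the exceptions. The RIPK3 primer pair of the paper's supplement, looked up after the values were seen, is given in lower case with no part marked.
RIPK3 forward primer: atgtcgtgcgtcaagttatgg
RIPK3 reverse primer: cgtagccccacttcctatgttg

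These primers, of 21 and 22 bases, both match 6 of 7 RIPK3 transcripts in GENCODE release 44. The product is 136 bases long in 5 of these transcripts and 345 bases in 1. The primers thus lie in most annotated RIPK3 transcripts, including RIPK3-201 of 1872 bases.

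APAF1 (ENSG00000120868; chromosome 12, 98645290 to 98735433) encodes the scaffold of the apoptosome, which activates caspase-9. It had 473 and 304 counts in Vector and 965 and 1024 in JMJD3 libraries. The Vector libraries differed from each other more than the JMJD3 libraries did, but both stayed far below them. CPM was 10.4 ± 3.39 (SD, n = 2) in Vector and 26.9 ± 1.13 (SD, n = 2) in JMJD3 cells, and the log2 fold change was 1.37 (SE 0.21; edgeR adjusted p = 0.00414). It was 1.71 without Vector replicate 1 and 1.07 without Vector replicate 2, and mean FPKM was 2.08 against 5.50. ANKS1B, on the opposite strand over 9.67% of its exon bases and looked at after the values were seen, had 67 to 105 counts in the 4 libraries and did not pass (edgeR adjusted p = 0.420). CASP9, which APAF1 activates and which was chosen after its values were seen, had a log2 fold change of -0.023 (SE 0.11; edgeR adjusted p = 0.882), so APAF1 rose while this partner did not pass.

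The other genes of these pathways moved in both directions. In 8 pathway lists there were 95 genes besides the 10 members, of which 84 were tested, 12 (14.3%) were called higher and 16 (19.0%) were called lower by edgeR. Their median log2 fold change was -0.023, against 0.04 for all tested genes, so neither the counts nor the median stand above the rest of the table. Without JMJD3 replicate 1 the higher and lower counts were 8 and 10, without JMJD3 replicate 2 they were 8 and 6, and without Vector replicate 1 they were 20 and 24. A gene can stand in more than 1 list, and the lists below include the members. The share called higher ran from 9.09% to 36.4% over the 8 lists and the share called lower reached at most 36.4%, on 4 to 25 tested genes each, against 21.6% and 19.1% of all tested genes, and nothing particular to a list is read from its counts.

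Among 6 death ligand genes, 4 were tested and TNFSF10 alone was higher (median log2 fold change of the list 0.88). The other 3 are named after their values were seen. LTA (17 to 46 counts) and TNFSF12 (7 to 24 counts) had log2 fold changes of 0.84 and 0.91 without passing, and the median rests on these low genes. TNF, the most abundant gene of the list, had 3169 and 3633 counts in Vector and 3176 and 3026 in JMJD3 libraries, and its log2 fold change of -0.11 did not pass (edgeR adjusted p = 0.372). Of 14 death and decoy receptor genes 11 were tested, of which 4 rose and the other 7 did not pass. TNFRSF25 (DR3) rose by 1.40 and TNFRSF12A, the TWEAK receptor, by 0.88 on the log2 scale, next to FAS and TNFRSF10B, while the list's median was 0.13. In the list of DISC (death-inducing signaling complex) adaptors and initiator caspases, all 12 genes were tested, 2 rose and 2 fell, and the median was -0.04. CASP8AP2, which binds caspase-8, rose by 1.03 (0.69 without Vector replicate 2 and 1.45 without Vector replicate 1) and TRADD, the adaptor of TNF receptor 1, by 0.47, while DAXX, a FAS-binding protein, fell by 0.41 beside CASP8. FADD, chosen after its values were seen, had a log2 fold change of 0.32 and did not pass (edgeR adjusted p = 0.0908).

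TNF receptor complex I and its ubiquitin enzymes, the setting in which RIPK1 acts, made up 25 tested genes, of which 4 (16%) rose and 2 (8%) fell, both shares below those of all tested genes (median 0.08). The deubiquitinase gene CYLD rose by 0.50 and its partner SPATA2 by 0.39, whereas TNFAIP3 (A20), which edits ubiquitin on RIPK1, fell by 1.00 and the kinase gene IKBKE by 0.41 on the log2 scale. The necroptosis list had 13 of 15 genes tested, 2 higher and 4 lower (median 0.03). TICAM1 (TRIF), an adaptor that can engage RIPK3, had 95 and 110 counts against 297 and 299 and rose by 1.56, and PELI1, a ubiquitin ligase, rose by 0.73. The phosphatase gene PGAM5, the ubiquitin ligase gene STUB1 and the ESCRT gene CHMP4B fell by 0.56, 0.55 and 0.46 on the log2 scale, and CASP8 is the other gene of this list that was lower.

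Of 12 apoptosome and IAP antagonist genes 11 were tested, with APAF1 the 1 gene higher and 4 lower (median -0.16). AVEN, which binds APAF1, BIRC5 (survivin) and the chaperone gene HSPA4 fell by 0.84, 0.66 and 0.40 on the log2 scale. These are directions of RNA only, and what they mean together for apoptosis was not tested. Effector caspases and their substrates had 1 gene higher and 4 lower of 11 tested (median -0.12), DFFA rising by 0.80 and ENDOG, ACIN1 and AIFM1 falling by 0.59, 0.56 and 0.55. Inflammatory caspases and pyroptosis genes had 2 higher and 2 lower of 11 tested (median -0.16), CARD8 (0.93) and NLRP3 (0.50) against CASP1 (-0.44) and CASP4 (-0.37). CARD8 and DFFA also had implied lengths that differed between the groups, like CFLAR, with log2 ratios of 0.66 and 0.35, looked at after the values were seen. On log2(FPKM + 1) limma gave smaller log2 fold changes of 0.26 for CARD8, 0.20 for NLRP3, 0.42 for DFFA and 1.04 for TICAM1. With the pseudocount of 0.1 TICAM1 had 1.497, close to its 1.56 on counts, so its smaller value depended on the pseudocount. CARD8 (0.260), NLRP3 (0.211) and DFFA (0.430) stayed well below their values on counts with that pseudocount too. Of these genes TRADD, CYLD, SPATA2, CARD8 and NLRP3 did not pass with limma on FPKM, and TRADD, CYLD, STUB1, CASP1 and CASP8AP2 did not pass with no filter on low counts. TRADD also did not pass with DESeq2 or without Vector replicate 1 (edgeR log2 fold change 0.36), nor SPATA2 with the replicate block. Without 1 or the other JMJD3 library the calls of TRADD, DAXX, CYLD, SPATA2, IKBKE, STUB1, CHMP4B, HSPA4, ENDOG, NLRP3, CASP1 and CASP4 were lost (edgeR adjusted p from 0.0590 to 0.371 where lost).

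**Figure D4:**
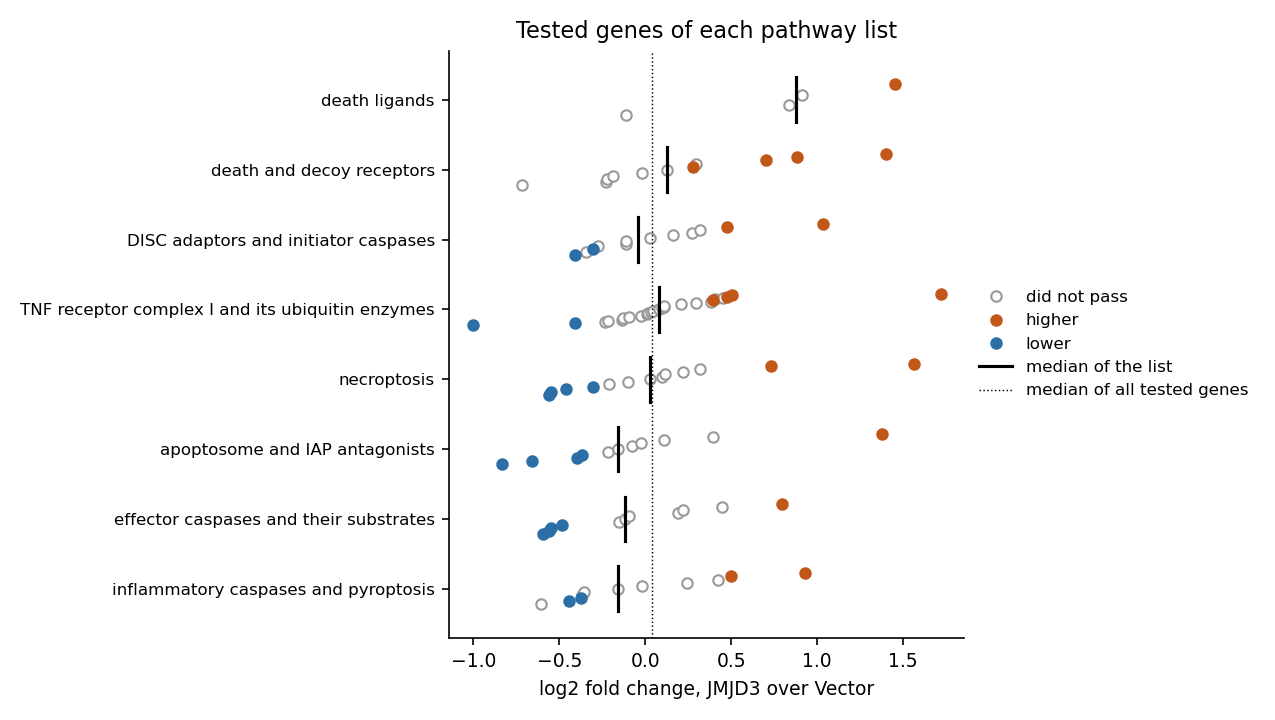
Log2 fold change (JMJD3 over Vector) of each tested gene in the 8 pathway lists, with the list's median and a dotted line at the median of all tested genes (0.04). Apart from the death ligands (4 tested genes, median 0.88), the list medians lie between -0.16 and 0.13.

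Markers of the NB4 line and of other cell types were read beside the members. All 8 promyelocyte markers were above 3 counts in some library, and MPO, the most abundant, had 514340 and 538521 counts in Vector and 347367 and 348903 in JMJD3 libraries. ELANE, a defining gene of promyelocytes, had 13, 7, 1 and 2 counts and was not tested. The summed CPM of this list was 17566 and 18420 in Vector and 11771 and 11732 in JMJD3 libraries, mainly from MPO, with 3 genes higher and 4 lower of 7 tested. By edgeR log2 fold change, CEBPE (0.72), ANPEP (0.31) and CD33 (0.29) were higher. CTSG (-3.91), PRTN3 (-1.81), MPO (-0.57) and AZU1 (-0.56) were lower. Apart from MPO, these are named after their values were seen. The T cell list summed to 13.4 and 15.2 against 51.1 and 47.2 CPM, mainly from TRAC (346 and 364 against 1457 and 1314 counts), with 2 of 3 tested genes higher, while CD3E, CD5 and CD8A were at or under 3 counts in every library. The monocyte and macrophage list summed to 7.31 and 5.97 against 15.7 and 15.7 CPM, mainly from CSF1R (183 and 147 against 479 and 479 counts), the 1 of 4 tested genes that was higher, and CD163, MRC1, C1QB and MARCO were at or under 3 counts throughout.

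The B cell list, of which CD79B was the most abundant, summed to 26.1 and 30.8 against 37.0 and 33.2 CPM. MS4A1 and PAX5 were at or under 3 counts in every library. Of 4 tested genes 1 was higher, which was CD79A (283 and 329 against 566 and 507 counts), named after its values were seen. CD79B overlapped between the groups and did not pass (edgeR log2 fold change 0.05). Megakaryocyte markers, of which GP1BA was the most abundant, summed to 2.70 and 1.99 against 3.70 and 3.70 CPM. PF4, PPBP and GP9 were at or under 3 counts. Of 2 tested genes 1 was higher, which was ITGA2B (22 and 25 against 65 and 60 counts), named after its values were seen. GP1BA overlapped between the groups and did not pass (edgeR log2 fold change 0.16). Of 8 erythroid markers 0 were tested and 7 were at or under 3 counts in every library, KLF1 being the exception with 2, 4, 4 and 0 counts, and their sum was at most 0.157 CPM. The T cell, monocyte, B cell and megakaryocyte sums were all higher in both JMJD3 libraries than in both Vector libraries, the direction of TNFSF10, FAS and APAF1. The promyelocyte sum, mainly MPO, was lower in both JMJD3 libraries, the direction of CASP8, although 3 of the 7 tested genes of that list were higher. Each marker list had at most 7 tested genes, and its counts of called genes stand beside the same 21.6% higher and 19.1% lower of all tested genes. The part of these markers in the members' changes was not tested.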

How the data were processed

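RNA of 4 NB4 libraries was analysed, 2 of the Vector and 2 of the JMJD3 group. The deposited table holds, for every gene in every library, an estimated count and an FPKM. Columns with the authors' own comparison (log2 fold change, p-value, FDR) were not used here. The sources differ on how the table was made. The submitters' processing notes name CASAVA 1.8, TopHat2 2.0.4, RSEM, edgeR and build GRCh38, the series text names BWA with ANOVA and TopHat with Cufflinks, and the paper's methods name Cutadapt, STAR with hg19, HTSeq-count and DESeq2. HTSeq-count gives whole numbers, whereas 98.4% of the nonzero counts are not whole (tolerance 1e-06). Culture in DMEM and extraction with Trizol are given in the labels, RPMI-1640 and RNeasy in the methods. Libraries were made with a TruSeq RNA kit, and whether counting used strand is not stated.

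Counts were rounded to integers, filtered with filterByExpr (15246 of 60662 genes were tested), scaled by TMM and tested with edgeR 4.0.16 in R 4.3.3 (glmQLFit, glmQLFTest; group only), with Benjamini-Hochberg adjustment over all tested genes and a threshold of 0.05. The SE is |log2 fold change| over the square root of F. The scaled library sizes gave CPM, and edgeR adjusted p in the text means this quasi-likelihood test. Totals ran from 34704909 to 40768225 counts. The code was tested on simulated data.

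Members and gene lists were chosen with earlier results of these data known. Besides the members and KDM6B, the genes named were, per pathway list, up to 3 higher and 3 lower with the largest change among those called with a mean FPKM of at least 1, and the most abundant gene of each marker list. Other genes fall outside this rule and are to be read as chosen after their values were seen, also where the text does not repeat it, as for ELANE and ENSG00000258973. Alternatives were DESeq2 1.42.0 size factors and Wald test, upper quartile scaling, limma 3.58.1 on log2 FPKM with a pseudocount of 1 or 0.1, no filter, at least 10 counts in every library, the replicate block, each library left out, and thresholds of 1.5-fold and 2-fold. Positions and promoters are from RefSeq GRCh38.p14. Transcript lengths and overlaps are from GENCODE release 44 lifted to GRCh37, which held 93.9% of the gene identifiers, and no coordinate was taken from it.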

Additional observations from a re-analysis of the deposited data

How the results depend on the processing

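Of 480 values of 40 named genes under the alternatives, 416 had the same direction and side of the threshold, 55 lost the call, 1 gained it with the same sign (TNFRSF1A without Vector replicate 1) and 8 changed sign, of which 2, CFLAR with limma on either FPKM scale, also gained a call. Sign changes were CFLAR with size factors from DESeq2 (-0.0035), its Wald test (-0.0035), limma on log2(FPKM + 1) (-0.59) and on log2(FPKM + 0.1) (-0.61) and, with a library left out, over -0.0022 to 0.032; CD79B over -0.13 to 0.21 with a library left out; and GP1BA over -0.14 to 0.49.

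Members higher (4) were 2 at 2-fold and 3 to 4 with a library left out. Members lower (1) were 0 with upper quartile scaling, with no filter and at 1.5-fold and 2-fold by edgeR (1, 2, 0 and 0 at an unadjusted p under 0.05; 1 by the DESeq2 Wald test, and 1 by limma, which was CFLAR), and 0 to 2 with a library left out. Pathway genes higher (12) were 7 with limma on log2(FPKM + 1), 7 on log2(FPKM + 0.1), 4 at 2-fold and 8 to 20 with a library left out. Pathway genes lower (16) were 4 at 1.5-fold, 1 at 2-fold and 6 to 24 with a library left out. In a group reduced to 1 library, that library is assumed to vary like the other group, and the fit without Vector replicate 1 is also the comparison within lane 17. Scaling moved the median of all tested genes to between 0.01 and 0.08.

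With the replicate block, members higher and lower were 3 and 0 (edgeR; 0 lower also at an unadjusted p under 0.05) and pathway genes 14 and 17. Deviations of replicate 1 correlated at -0.252 between the groups, and no source says that replicate numbers mark pairs. A crossed replicate block, added after the data were seen, gave 4 and 2 members and 19 and 21 pathway genes. The cause was not tested for any of these changes. At these depths RIPK3, with 0 or 1 counts, was not detectable beyond the limit of 3 counts.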
